A study of Homo sapiens with 2 samples.

Results

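The CDC25 phosphatases CDC25A, CDC25B and CDC25C and the kinases WEE1, PKMYT1, PLK1, AURKA, CHEK1 and CHEK2 were followed as mRNAs in RNA precipitated with an anti-LRPPRC antibody. The 9 genes were taken by name from a table of 16770 named genes, and all 9 had a value in both libraries. LRPPRC is an RNA-binding protein with pentatricopeptide repeats, found in mitochondria and in the cytoplasm. RNA immunoprecipitation (RIP) was done with an anti-LRPPRC antibody on lysates of A549 cells with a wild-type genotype, an established lung adenocarcinoma line of epithelial cells. Libraries for stranded total RNA were made from the precipitate, and the 2 libraries of this 1 condition are called replicate 1 and replicate 2. The paper calls the RIP replicates biological and the series text calls them technical, so the spread between them may be technical only.

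The values are FPKM, fragment numbers scaled to transcript length and to the mapped fragments of each library, so levels of different genes are compared per length. They give the amount of an mRNA in the precipitate. No input library was analysed here, so its amount in the cell is not corrected for. Nor was an IgG library, so RNA precipitated without binding to LRPPRC is not corrected for. The summed FPKM of all rows was 196627 in replicate 1 and 194839 in replicate 2, and the sequencing depth is unknown. With 1 condition there is no contrast to test, and every comparison is a description of these libraries with the SD of 2 values. Of 6 epithelial markers, KRT8 led with 337 ± 3.11 FPKM (SD, n = 2), whereas CDH1 had 1.33 ± 0.0219 FPKM and EPCAM 0.43 ± 0.0402 FPKM (SD, n = 2 each). The 5 markers of leukocytes, endothelium, fibroblasts and erythroid cells with a value were between 0.0543 and 0.696 FPKM.

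These genes govern entry into mitosis. WEE1 holds CDK1 and CDK2 inactive by phosphorylating a tyrosine in the ATP-binding loop, PKMYT1 acts on CDK1 at this tyrosine and at the threonine before it, and the CDC25 phosphatases remove these phosphates. CHEK1 and CHEK2 are activated by DNA damage or stalled replication and phosphorylate CDC25 proteins, which are then degraded or held by 14-3-3 proteins. AURKA activates PLK1, and PLK1 in turn activates CDC25 proteins and marks WEE1 for degradation. The coding bases of the site on which kinases and phosphatases meet are given here from the canonical transcripts (GENCODE 44, GRCh38), 5′ to 3′, with the codons of that threonine and tyrosine in capitals. The CDK1 stretch lies within chr10:60780187-60784724 on the plus strand and crosses an intron, and the CDK2 stretch is chr12:55967030-55967065 on the plus strand.
CDK1: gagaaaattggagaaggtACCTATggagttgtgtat
CDK2: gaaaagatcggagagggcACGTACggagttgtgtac

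The mRNA of CDC25B was far above all the others in LRPPRC RIP. CDC25B, the phosphatase that starts the activation of CDK1 in G2, had 246 FPKM in replicate 1 and 249.9 FPKM in replicate 2 (248 ± 2.78, SD, n = 2). It ranked 67 among the named genes, 99.6% of which were lower, and only 0.394% were higher. AURKA followed at 29.3 ± 0.952 FPKM, PLK1 at 13.8 ± 0.0864, CDC25C at 12.7 ± 0.0319, WEE1 at 9.93 ± 0.0557, CHEK1 at 7.59 ± 0.0553, CHEK2 at 6.21 ± 0.671, CDC25A at 5.53 ± 0.282 and PKMYT1 at 3.94 ± 0.788 FPKM (SD, n = 2 each). CDC25B was 8.46 ± 0.37 times AURKA, the next in order (ratio within each library, SD, n = 2), and 63 times PKMYT1, the lowest, by means. Its mean was 2.78 times the sum of the other 8, and it made up 73.6% of the summed FPKM of the 9.

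**Figure D1:**
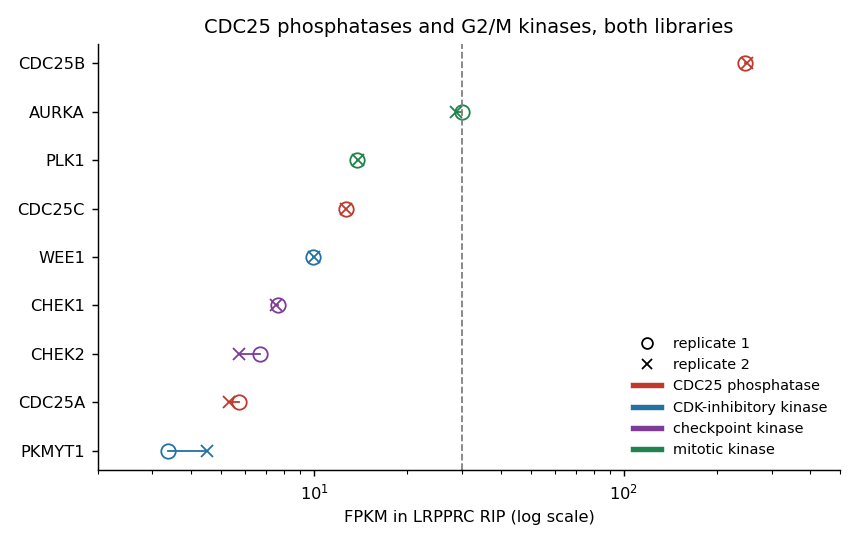
The 9 mRNAs (y axis, highest mean at the top) and their FPKM in LRPPRC RIP (x axis, log scale). Circles mark replicate 1 and crosses replicate 2, colours give the role and the dashed line is FPKM 30. CDC25B stands alone at 248 FPKM, AURKA lies at the line and the other 7 lie between 3.94 and 13.8 FPKM.

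The study lists RNAs above FPKM 30 as potential binding RNAs of LRPPRC. It also measured RIP signal over input, which was not analysed here. Of the 9 mRNAs, only CDC25B passed FPKM 30. This was 1 of 9 (11.1%), against 8.46% of all named genes and 13.6% of the 10441 named genes with at least 1 FPKM in both libraries, so the share of these mRNAs above the threshold was near the background. AURKA, with 29.99 FPKM in replicate 1 and 28.6 FPKM in replicate 2, stood just below it in both. At FPKM 20, 2 of 9 (22.2%) passed, CDC25B and AURKA, against 13.1% of all named genes and 21.1% of those with at least 1 FPKM in both libraries. At FPKM 50 CDC25B alone passed, against 4.29% and 6.89% of the same genes. All 9 mRNAs had at least 1 FPKM in both libraries, as did 62.3% of named genes. The median of the 9 was 9.93 FPKM, against 6.81 FPKM over the named genes with at least 1 FPKM in both libraries. Against these genes CDC25B was above 99.4% and AURKA above 86%. PLK1, CDC25C, WEE1 and CHEK1 were above 70.4%, 68.2%, 61.3% and 53.3% of them, while CHEK2 (47.1%), CDC25A (43.6%) and PKMYT1 (33.1%) lay in their lower part.

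**Figure D2:**
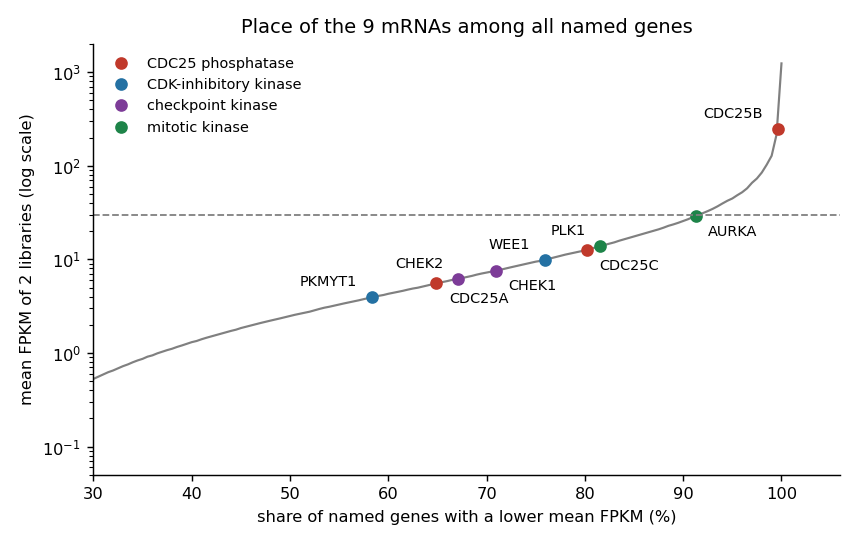
Mean FPKM over the 2 libraries on a log scale (y axis) against the share of named genes with a lower mean (x axis, %). The gray curve is all 16770 named genes, shown from 30% upward, the dots are the 9 mRNAs and the dashed line is FPKM 30. CDC25B sits on the steep end at 99.6%, AURKA at 91.3% and PKMYT1 at 58.3%.

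Among the CDC25 phosphatases, the 3 mRNAs differed by more than an order of magnitude. CDC25C, which acts on CDK1 at entry into mitosis, had 12.7 FPKM in both libraries. CDC25A, which also activates CDK2 at the start of S phase, had 5.73 FPKM in replicate 1 and 5.33 FPKM in replicate 2. Within each library CDC25B was 19.6 ± 0.269 times CDC25C and 44.9 ± 2.8 times CDC25A (SD, n = 2), and CDC25C was 2.3 ± 0.111 times CDC25A (SD, n = 2). The values of any pair did not overlap between the libraries.

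CDC25B lies on chromosome 20 of GRCh38 from 3796310 to 3806115 on the plus strand, CDC25C on chromosome 5 from 138285269 to 138331804 on the minus strand and CDC25A on chromosome 3 from 48157146 to 48188417 on the minus strand. The catalytic loop is shown because all 3 enzymes have it, so the bases of the 3 mRNAs can be compared there. Capitals mark the codons of the catalytic cysteine and of the arginine that closes the loop, at chr3:48164312-48164347 (minus strand), chr20:3803497-3803532 (plus strand) and chr5:138286502-138286537 (minus strand).
CDC25A: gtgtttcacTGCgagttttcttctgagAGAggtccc
CDC25B: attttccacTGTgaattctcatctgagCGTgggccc
CDC25C: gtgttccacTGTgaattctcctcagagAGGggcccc

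The codons between the capitals encode the same residues in all 3 lines and differ in their bases. By blastn, the canonical CDC25A and CDC25B transcripts were 69.9% identical over 608 aligned bases, CDC25B and CDC25C 68.8% over 266 and CDC25A and CDC25C 66.6% over 434. The longest run of bases shared exactly was 17 between CDC25B and CDC25C, 14 between CDC25A and CDC25B and 13 between CDC25A and CDC25C. None of the 3 transcripts had another locus in the genome of at least 95% identity over at least 200 bases, nor any of at least 90%.

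WEE1, the nuclear tyrosine kinase that inhibits CDK1 and CDK2, had 9.89 FPKM in replicate 1 and 9.97 FPKM in replicate 2. PKMYT1, its relative at the membranes of the endoplasmic reticulum and Golgi, had 3.38 FPKM in replicate 1 and 4.49 FPKM in replicate 2. WEE1 was above PKMYT1 in both libraries, by 2.93 times in replicate 1 and 2.22 times in replicate 2. PKMYT1 was the only one of the 9 whose libraries differed by more than 1.2 times, which 9.48% of the 10631 named genes with a mean of at least 1 FPKM did. Of 2161 genes within 0.5 log2 of its level, 96% had a smaller difference between the libraries.

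WEE1 lies on chromosome 11 from 9573670 to 9589985 on the plus strand, and PKMYT1 on chromosome 16 from 2972808 to 2980446 on the minus strand. The canonical exons of PKMYT1 share 335 bases with those of PAQR4 on the opposite strand, whose FPKM was 3.66 in replicate 1 and 4.22 in replicate 2. How strand was used in counting fragments is not stated in the sources used here, and the part of PAQR4 in the level of PKMYT1 was not tested.

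Of the checkpoint kinases, CHEK1, which ATR activates at stalled forks, had 7.63 FPKM in replicate 1 and 7.56 FPKM in replicate 2. CHEK2, which ATM activates at double-strand breaks, had 6.69 FPKM in replicate 1 and 5.74 FPKM in replicate 2. CHEK1 was thus above CHEK2 by 1.14 times in replicate 1 and 1.32 times in replicate 2, a narrower gap than between WEE1 and PKMYT1 or within any pair of CDC25 mRNAs. CHEK2 had the next largest spread after PKMYT1, with a coefficient of variation of 10.8%, and 89.9% of 2208 genes at a like level differed less between the libraries.

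CHEK1 lies on chromosome 11 from 125625163 to 125657147 on the plus strand. CHEK2, on chromosome 22 from 28687743 to 28741820 on the minus strand, was the only one of the 9 with other loci of 95% identity or more over 200 bases or more. The last 247 bases of its canonical transcript, 13.4% of the length, recur at 7 other loci, among them CHEK2P6 on chromosome 16 with 98% identity and CHEK2P2 on chromosome 15 and CHEK2P3 on chromosome 2, each with 96.4%. At 90% identity, a limit chosen after the first search, 28 hits, shorter ones included, covered 37.6% of the CHEK2 transcript. The part of these copies in the level of CHEK2 was not tested. The canonical transcript of CHEK1 shares 751 bases with a long non-coding RNA on the opposite strand, whose level was not analysed here. STT3A, whose gene overlaps that of CHEK1 on the same strand, had 21.2 FPKM in replicate 1 and 20.8 FPKM in replicate 2. The canonical exons of STT3A and CHEK1 share no bases. The part of these genes in the level of CHEK1 was not tested.

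Of the mitotic kinases, AURKA, which matures centrosomes and activates PLK1, was 2.18 times PLK1 in replicate 1 and 2.06 times in replicate 2. PLK1, which activates CDC25 proteins, had 13.8 FPKM in replicate 1 and 13.9 FPKM in replicate 2, so its libraries differed by less than 1%. AURKA lies on chromosome 20 from 56369390 to 56392215 on the minus strand and PLK1 on chromosome 16 from 23678889 to 23690367 on the plus strand. The canonical exons of PLK1 share 156 bases with a long non-coding RNA and 58 bases with ERN2, both on the opposite strand. ERN2 had a mean of 0.0098 FPKM, and the level of the non-coding RNA was not analysed here. The part of these genes in the level of PLK1 was not tested. AURKA had no copy at the limit of 95%. With a limit of 90%, chosen after the first search, the pseudogene AURKAP1 on chromosome 1 covered 86.1% of the AURKA transcript with 94.3% identity, and AURKAP2 on chromosome 10 had 2 stretches of 90.6% and 91.4% identity. The part of these loci in the level of AURKA was not tested.

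The 6 kinases can be divided by the catalytic loop of the kinase domain, which the choice of genes did not use. Capitals mark the codons of the histidine, the residue after it and the catalytic aspartate. WEE1 has a methionine codon between them and PKMYT1 a leucine codon, while PLK1, AURKA, CHEK1 and CHEK2 have an arginine codon, as most protein kinases do. The WEE1 stretch lies within chr11:9581657-9585265 and crosses an intron. The others are chr16:2975474-2975503 for PKMYT1, chr16:23680192-23680221 for PLK1, chr20:56373476-56373505 for AURKA, chr11:125629415-125629444 for CHEK1 and chr22:28696937-28696966 for CHEK2.
WEE1: gttCACATGGATataaaacctagtaatatt
PKMYT1: gtgCACCTTGATgtcaagcctgccaacatc
PLK1: attCATCGAGACctcaagctgggcaacctt
AURKA: attCATAGAGACattaagccagagaactta
CHEK1: actCACAGGGATattaaaccagaaaatctt
CHEK2: ataCACCGTGACttaaagccagagaatgtt

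These classes did not follow the levels. WEE1, with its methionine codon, lay above CHEK1 and CHEK2 and below AURKA and PLK1, and PKMYT1 lay below all 4 kinases with the arginine codon.

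Set against WEE1, PKMYT1, CHEK1 and CHEK2 together, the phosphatases were higher in summed FPKM, and the higher sum rested on CDC25B. The summed FPKM of the 3 CDC25 mRNAs was 264 in replicate 1 and 268 in replicate 2, against 13.3 and 14.5 FPKM for WEE1 and PKMYT1 and 14.3 and 13.3 FPKM for CHEK1 and CHEK2. The ratio of the CDC25 sum to the sum of these 4 kinases was 9.58 in replicate 1 and 9.65 in replicate 2 (9.62 ± 0.0486, SD, n = 2). Without CDC25B it was 0.668 in replicate 1 and 0.648 in replicate 2, so CDC25A and CDC25C together were below the 4 kinases in both libraries. This sum sets 2 mRNAs against 4, so it is no comparison per gene. With the geometric mean of each group in place of the sum, CDC25B included, the ratio was 3.96 ± 0.147 (SD, n = 2). CDC25C was above WEE1 and CDC25A above PKMYT1 in both libraries, so CDC25A and CDC25C together stayed above WEE1 and PKMYT1 together. They fell below only with CHEK1 and CHEK2 added to the kinase sum. Gene by gene, CDC25C was above each of the 4 kinases in both libraries, while CDC25A was below WEE1, CHEK1 and CHEK2. The mitotic kinases AURKA and PLK1 summed to 43.8 FPKM in replicate 1 and 42.5 FPKM in replicate 2.

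The order of the 9 was the same in both libraries. The 2 values of each mRNA lay apart from those of every other in all 36 pairs, including the closest neighbours PLK1 and CDC25C, whose means differed by 1.09 times, and CHEK2 and CDC25A, by 1.12 times. For CHEK2 and CDC25A the nearest values were 5.74 and 5.73 FPKM, so that this pair barely misses overlapping, while CHEK2 was the higher within each library, by 1.17 times in replicate 1 and 1.08 times in replicate 2. The median absolute log2 ratio of the libraries on log2(FPKM + 1) was 0.02 for the 9 and 0.06 for the named genes with a mean of at least 1 FPKM. The latter include genes lower than any of the 9. Among genes at a like level, the share with a smaller difference was 66.9% for AURKA, 65.8% for CDC25A, 89.9% for CHEK2 and 96% for PKMYT1. For each of the rest it was at most 35.3%, the share for CDC25B. Replicate 1 was the higher for 5 of the 9 and replicate 2 for 4.

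Relatives outside the 9 extended the range within the kinase families. PLK1, at 13.8 FPKM in replicate 1 and 13.9 FPKM in replicate 2, was below PLK2, a stress-responsive Polo-like kinase, at 199 and 193 FPKM. It was also below PLK4, which drives centriole duplication, at 27.5 ± 0.388 FPKM (SD, n = 2), while PLK3 had 0.662 ± 0.0562 and PLK5 0.0939 ± 0.0163 FPKM (SD, n = 2 each). AURKA, in contrast, was the highest Aurora kinase, with AURKB, of the chromosomal passenger complex, at 19.4 ± 1.01 FPKM (SD, n = 2) and AURKC, known mainly from germ cells, at 0.149 ± 0.0535 FPKM (SD, n = 2).

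The 9 mRNAs, with 1 above FPKM 30 and a median of 9.93 FPKM, were set beside 78 other genes of G2/M control listed by role. Of these, 77 had a value, 31 (40.3%) were above FPKM 30 and the median was 22.5 FPKM. Of all named genes 8.46% were above FPKM 30, and 13.6% of those with at least 1 FPKM in both libraries. The counts by role that follow stand beside the same background. The list was drawn up with results of these data known, so these shares are a description. Only 2 of the 77, both 14-3-3 genes, were above CDC25B.

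Of the 9 CDKs and cyclins on which these enzymes act, 4 were above FPKM 30. CDC25B, with 246 FPKM in replicate 1 and 249.9 FPKM in replicate 2, stood beside CCNB1, the mitotic cyclin of CDK1, with 234 and 248 FPKM, and their ranges overlapped. WEE1, at 9.93 ± 0.0557 FPKM, was level with CDK1 at 9.96 ± 0.0153 FPKM and below CDK2 at 44.2 ± 0.441 FPKM (SD, n = 2 each). CDC25B was far above both CDKs. CCNB3, a cyclin expressed mainly in germ cells, was the lowest of the group at 0.463 ± 0.1 FPKM (SD, n = 2).

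Upstream of CHEK1 and CHEK2, 3 of 14 checkpoint genes were above FPKM 30, led by RAD17, which loads the checkpoint clamp, at 53.3 ± 1.17 FPKM (SD, n = 2). The lowest was ETAA1, an activator of ATR, at 2.23 ± 0.162 FPKM (SD, n = 2). CHEK1 and CHEK2 were below the kinases that activate them in both libraries, ATR at 22.5 ± 0.0728 FPKM and ATM at 20.9 ± 1.93 FPKM (SD, n = 2 each). Among 5 activators of AURKA and PLK1, 3 were above FPKM 30, from CEP192 at 39.6 ± 0.26 FPKM to BORA, the cofactor with which AURKA activates PLK1, at 2.99 ± 0.0265 FPKM (SD, n = 2 each). AURKA, at 29.3 ± 0.952 FPKM, and TPX2, which activates it on the spindle, at 31 ± 2.39 FPKM (SD, n = 2 each), had overlapping values.

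Of 9 genes listed under protein turnover, 3 were above FPKM 30, from CDC20 at 89.4 ± 3.38 FPKM, an activator of the anaphase-promoting complex, to FZR1 at 4.69 ± 0.1 FPKM, another of its activators (SD, n = 2 each). BTRC, whose ubiquitin ligase recognises phosphorylated CDC25A and WEE1, had 5.44 ± 0.0998 FPKM (SD, n = 2). The 14-3-3 genes, whose proteins bind phosphorylated CDC25 and WEE1, were the highest group with 5 of 7 above FPKM 30, from YWHAZ at 688 ± 51 FPKM to SFN at 4.06 ± 0.356 FPKM (SD, n = 2 each). Of 11 genes of the phosphatase side of mitotic exit 5 were above it, from ARPP19, an inhibitor of PP2A, at 94.5 ± 0.0739 FPKM to PPP2R2D at 3.08 ± 0.471 FPKM (SD, n = 2 each). Among 11 genes listed for the transcription of G2/M genes 5 were, from FOXM1 at 159 ± 6.01 FPKM, an activator of CDC25B and PLK1, to LIN37 at 2.07 ± 0.513 FPKM (SD, n = 2 each). Of the other mitotic kinases, 11 of 12 had a value and 3 were above FPKM 30, from PLK2 to PLK5.

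The order of the 9 did not follow transcript length. Their canonical transcripts had 1844 to 4128 bases, with a median of 2160 bases against 3222.5 bases for 16370 matched protein-coding genes, and their coding lengths, from 1212 to 1941 bases, had a median of 1575 bases against 1395. The 3′ UTRs, from 145 bases in PKMYT1 to 1827 bases in CHEK1, had a median of 768 bases against 1207. CDC25B was near the middle in length, with 3119 bases, 16 exons and a 3′ UTR of 1154 bases, and longer than 48.1% of the matched genes. PKMYT1 stood out in composition, with 67.3% G and C, above 98.5% of the matched genes, and CHEK1 had 41.6%. Over the 9 mRNAs, Spearman's rho of FPKM was -0.05 with transcript length, 0.13 with 3′ UTR length and -0.08 with GC content, which describes 9 genes of the same libraries.

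FPKM multiplied by the length in kb, which approximates the share of fragments, kept CDC25B first at 773 and AURKA next at 59.6. WEE1, at 35.6, and CHEK1, at 31.4, moved above PLK1, at 29.9, and CDC25C, at 26.5. CDC25A, at 21.2, moved above CHEK2, at 11.5, and PKMYT1 was again the lowest at 8.11. On this scale CDC25B ranked 110 of the 16370 matched genes and made up 77.6% of the sum of the 9. The lengths come from a later annotation than the one the authors used, so the products need not recover their fragments.

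By Euclidean distance on log2(FPKM + 1) over the 2 libraries, the named genes nearest to CDC25B were BRD2, at 247 FPKM and a distance of 0.0077, and DNAJA1, at 248 FPKM and a distance of 0.017. Nearest to WEE1, the middle of the 9, were IREB2 at 9.92 FPKM and CDK1 at 9.96 FPKM, with distances of 0.0042 and 0.0071. Nearest to PKMYT1 were RRS1 at 4.01 FPKM and KLF12 at 4.06 FPKM, with distances of 0.056 and 0.059. These are likenesses of level in 2 libraries of 1 condition.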

How the data were processed

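RNA from anti-LRPPRC RIP of A549 cells was sequenced in 2 libraries. The submitters' processing notes and the study's methods name cutadapt 1.18 for adapters, HISAT2 2.1.0 for alignment (GRCh38), SAMtools for sorting and StringTie 1.3.3b for quantifying Ensembl genes, each library on its own. The deposited values are FPKM per gene and library for 21262 rows, of which 4460 are genes added by assembly and 32 repeat a name (of such rows the higher by mean was kept). To look for whole reads, 5405 genes with a mean below 0.3 FPKM were searched, and no more than 76 (1.41%) fell within 0.02 of each other in log2 ratio between the libraries. Reads could not be recovered from such values, so counting intervals are not given.

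Means, SDs, ranks and ratios were computed, with a pseudocount of 1 on the log2 scale. Of the named genes, 16463 were matched to GENCODE 44 (Ensembl 110, GRCh38), 880 of them by an older symbol. Canonical transcripts of the 9 genes were searched against the chromosomes of GRCh38 with blastn 2.17.0 (megablast). Coding stretches were found by translating the canonical coding sequence. Genes named are the 9, the highest and lowest of each role group and relatives or partners within those lists, genes nearest in level, markers and overlapping genes or copies. PLK3, PLK4, AURKB, AURKC, CDK1, CDK2, ATR, ATM, TPX2 and BTRC were added after their values were seen. Members, lists and alternatives were chosen with earlier results of these data known. Alternatives were other thresholds, each library alone, other pseudocounts, TPM, products with length and other groupings. The summary functions were tested on simulated data. Scripts ran in Python 3.11.15 with pandas 2.3.3, numpy 2.4.6, matplotlib 3.10.9 and scipy 1.17.1.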

Additional observations from a re-analysis of the deposited data

How the results depend on the processing

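With a single library the ratio of the CDC25 sum to the sum of WEE1, PKMYT1, CHEK1 and CHEK2 was 9.58 or 9.65, the rank of CDC25B 69 or 66, and 1 mRNA was above FPKM 30 in each. PKMYT1, whose libraries differed most, had 3.38 or 4.49 FPKM. With 2 libraries a single value of a level or ratio cannot leave the SD around their mean, so these values give the range and no test of stability. At FPKM 20 the count was 2, with AURKA added, against 13.1% of all named genes, because the threshold itself differs. The ratio turned below 1 without CDC25B (0.658 ± 0.0141, SD, n = 2), where fewer phosphatase than kinase mRNAs were summed. With CDC25B it was 3.96 with geometric means, 9.49 with FPKM multiplied by length and 19.2 against WEE1 and PKMYT1 alone (means, n = 2 each). With FPKM multiplied by length CDC25B ranked 110, because the division by length was removed. Against genes with at least 1 FPKM in both libraries, the median percentile of transcript length was 24.3%, against 29.1% among all matched genes. Scaled to TPM, a change of unit, CDC25B had 1267, AURKA 149.8, PLK1 70.7, CDC25C 64.8, WEE1 50.8, CHEK1 38.8, CHEK2 31.7, CDC25A 28.2 and PKMYT1 20.1 TPM. No paired analysis was possible because both libraries belong to 1 group. Without the depth, the counting error of mRNAs as low as PKMYT1 is unknown.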
